A study of Mus musculus with 14 samples.

Results

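Genes that encode chromatin modifiers and remodelers were collected by name from the peak lists of MyoD and MyoG chromatin immunoprecipitation sequencing (ChIP-seq) in mouse muscle stem cells (MuSCs). A gene was taken if its symbol belonged to a family of histone deacetylases (Hdac, Sirt), histone acetyltransferases and their partners (Kat, Ep300, Crebbp, Ncoa), corepressors, lysine demethylases (Kdm), methyltransferases (Kmt, Setd, Ezh, Prmt), nucleosome remodelers (Smarc, Arid, Chd), readers of histone marks (Brd, Cbx) or enzymes of DNA methylation (Dnmt, Tet). Of the 4384 genes named in the 12 lists, 32 met the rule, and 84 of the 10303 peaks were assigned to them. The rule reads gene names, but only a gene with a listed peak could be taken. Of the 32, 28 had an ASC MyoD peak and no peak in another group. Shares of the 32 by group are therefore not independent of how the genes entered. Among the 32, Hdac1-ps, Cbx3-ps6 and Cbx3-ps1 are pseudogene symbols.

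The mice were labelled wild-type and carried a Pax7-Cre(ERT2) driver, which acts in MuSCs and their descendants after tamoxifen, together with a mito-Dendra2 allele that then makes mitochondria fluorescent. All received tamoxifen (75 mg/kg daily, 5 days), after which BaCl2 (50 µL, 1.2%) was injected into one tibialis anterior muscle and saline into the opposite one. At 2 days post injury, CD34+ Dendra2+ DAPI- quiescent cells (QSCs) were sorted from the saline side and CD34- Dendra2+ DAPI- activated cells (ASCs) from the injured side, and chromatin was precipitated with an antibody to MyoD or to MyoG. Each combination of state and antibody (for example ASC MyoD) had 3 libraries, which makes 4 groups and 12 libraries, and the 2 input libraries were not analysed here. Since state, injury and CD34 sort gate changed together, they cannot be told apart, and the ages of the mice, the number of animals per library and whether ASC and QSC libraries came from the same animals were not given in the sources used here. The lists hold no expression values, so the labelled cell identity could not be checked against marker genes.

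MyoD and MyoG are basic helix-loop-helix transcription factors of the muscle lineage that bind E-boxes, sites of the form CANNTG. MyoD is known to act through chromatin: it recruits acetyltransferases, which loosen nucleosomes, and SWI/SNF complexes, which use ATP to move them, whereas deacetylases hold muscle genes silent before differentiation. A peak near a gene of this machinery marks DNA enriched by the antibody and does not say whether the gene was transcribed.

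Cbx5 encodes heterochromatin protein 1 alpha, which binds methylated histone H3 at silent chromatin, and its promoter is shown because it was the only RefSeq promoter window among the members that lay wholly inside a MyoD peak in all 3 ASC libraries. Promoter sequence was available for 20 of the 32 genes, in 28 windows of which 250 bases before the start are considered here, and a member's own peak touched 2 of the windows. Each sequence below is the 250 bases before the start in the RefSeq table (GRCm38.p6), 5′ to 3′ on the gene's strand, with every CANNTG in capitals. The internal Cbx5 start lies on the minus strand (chr15:103215353-103215602), the upstream Cbx5 start on the same strand (chr15:103239853-103240102), and the Arid5a start on the plus strand (chr1:36307483-36307732).
Cbx5, internal start: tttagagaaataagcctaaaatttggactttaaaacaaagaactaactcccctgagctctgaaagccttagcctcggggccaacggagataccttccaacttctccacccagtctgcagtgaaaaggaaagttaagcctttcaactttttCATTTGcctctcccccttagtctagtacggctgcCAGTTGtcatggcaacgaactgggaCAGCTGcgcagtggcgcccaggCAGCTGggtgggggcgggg
Cbx5, upstream start: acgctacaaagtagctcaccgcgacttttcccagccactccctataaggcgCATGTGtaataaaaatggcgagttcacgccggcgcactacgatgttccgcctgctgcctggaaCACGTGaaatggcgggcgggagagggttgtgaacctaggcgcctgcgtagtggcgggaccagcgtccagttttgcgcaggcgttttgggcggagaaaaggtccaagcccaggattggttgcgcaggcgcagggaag
Arid5a: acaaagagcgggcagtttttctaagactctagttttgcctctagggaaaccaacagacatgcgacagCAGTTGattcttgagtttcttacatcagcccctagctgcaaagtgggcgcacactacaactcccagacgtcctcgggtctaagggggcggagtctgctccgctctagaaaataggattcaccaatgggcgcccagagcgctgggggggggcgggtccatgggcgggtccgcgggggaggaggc

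The internal Cbx5 window held 4 CANNTG motifs, with first bases 100, 66, 41 and 19 bases before the start (positions -100, -66, -41 and -19), and the last 2 of these read CAGCTG. Since the CANNTG form is its own reverse complement, each match stands on both strands. Of the 32851 RefSeq mouse promoter windows of this length, 66.2% held at least 1 CANNTG, 3.84% held at least 4, and 1.26% held at least 2 CAGCTG. The upstream Cbx5 window held 2 CANNTG motifs, at -199 and -136, and no peak touched it. The Arid5a window held 1, at -183, and was touched by a peak in ASC MyoD replicate 3 alone. These matches describe the letters in the windows and are not measured binding sites.

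Most peaks at chromatin genes came from the ASC MyoD libraries, whose lists were also the longest. Of the 84 peaks, 80 came from the ASC MyoD lists, which held 2262 to 2652 peaks each. The other 3 groups gave 4, from lists of 120 to 916 peaks each. Mean list length in ASCs was 2403 peaks for MyoD and 720 for MyoG. In QSCs it was 161 for MyoD and 150 for MyoG. Most of the 10303 peaks in all lists were thus ASC MyoD peaks too. The ASC MyoD lists named 18, 19 and 23 of the chromatin genes in replicates 1, 2 and 3 (20 ± 2.65, SD, n = 3), whereas the QSC MyoD lists named 0, 0 and 1. The ASC and QSC groups did not overlap, and the difference of 19.7 genes per library had an exact permutation p = 0.1 (two-sided, 3 against 3), the smallest p this design allows, which was 0.175 after Benjamini-Hochberg adjustment over 7 comparisons. Within ASCs, the MyoG lists named 0, 2 and 0 chromatin genes, 19.3 fewer per library than the MyoD lists (exact permutation p = 0.1, adjusted 0.175). Over all 4384 genes, 67.6% had a peak in at least 1 ASC MyoD library. The share was 28% for at least 1 ASC MyoG library and 16.6% for any QSC library. The list lengths did not overlap between these groups either, so a gap in gene counts is not particular to chromatin genes. With peaks of a score of at least 80 only, both differences were 10.0 genes.

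**Figure D1:**
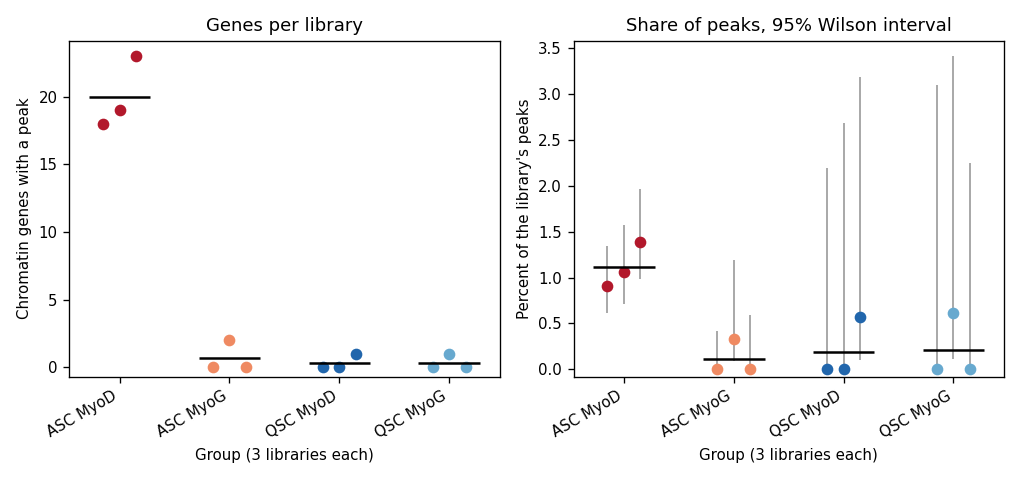
Chromatin genes with at least 1 peak per library (left) and their percentage of all peaks of the library (right), by group; points are libraries, black lines are group means of 3, and gray bars are 95% Wilson intervals for counting error. The ASC MyoD libraries sit at 18 to 23 genes and all others at 0 to 2, while the intervals of the QSC shares reach past those of the ASC MyoD shares.

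The lists themselves differed in length, which bears on these counts. The ASC MyoD lists held 2262 to 2652 peaks, the ASC MyoG lists 605 to 916, the QSC MyoD lists 139 to 174 and the QSC MyoG lists 120 to 167. No read counts were used here, so sequencing depth is unknown, and its part in the list lengths was not tested. As a share of the list, chromatin genes took 0.905%, 1.06% and 1.39% of ASC MyoD peaks and 0%, 0% and 0.575% of QSC MyoD peaks, a difference of 0.928 percentage points (exact permutation p = 0.1, adjusted 0.175). The ASC MyoG share was 0%, 0.331% and 0%, which is 1.01 points under the ASC MyoD share (exact permutation p = 0.1, adjusted 0.175). A single QSC MyoD list with no member peak allows a share of up to 1.75% (replicate 1) or 2.16% (replicate 2), above every ASC MyoD share. A lower share could thus not be seen in 1 such list alone, and the lists of a group were not pooled.

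By gene, 12 of the chromatin genes had a peak in all 3 ASC MyoD libraries, 8 in 2 and 8 in 1. At least 1 ASC MyoD library named 28 of 32 (87.5%), against 67.6% of all 4384 genes in the lists, and at least 2 libraries named 20 (62.5%), against 39.4%. All 3 libraries named 12 (37.5%), against 24% of all genes. Each of the 20 genes found in 2 or more libraries met the rule for ASC-specific genes (at least 2 of 3 ASC MyoD libraries and no QSC MyoD library). Over all 4384 genes, 1674 (38.2%) met it, out of 1726 found in at least 2 ASC MyoD libraries. Meeting the rule once found in 2 libraries is thus not particular to chromatin genes. Read against the genome, 138 RefSeq protein-coding genes have a name in these families, of which 28 are in the lists (beside 14.4% of all coding genes, the share to hold the counts of listed genes per role against) and 20 (14.5%) were found in at least 2 ASC MyoD libraries, against 6.33% of the 21900 coding genes. The named families are also long genes, with a median length of 45.7 kb against 17.1 kb over all coding genes, and the coding genes found in at least 2 ASC MyoD libraries had a median of 65.3 kb. The part of gene length in these shares was not tested.

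When overlapping peaks were merged, the 80 ASC MyoD peaks formed 40 regions, of which 14 were found in 3 libraries, 10 in 2 and 16 in 1. This is 35%, 25% and 40% of the regions, beside 27%, 21.4% and 51.6% of all 4100 ASC MyoD regions. None of the 40 overlapped a QSC MyoD peak or a MyoG peak of either state, but 99.6% of all ASC MyoD regions overlapped no QSC MyoD peak and 97.4% no MyoG peak, so this is not particular to chromatin genes. By the deposited annotation, 15 were intronic (4 of them in intron 1), 11 were at promoters (within 3 kb of a transcript start), 8 were distal intergenic and 6 were exonic. Against RefSeq coordinates, 31 lay inside the named gene. The score of a peak is minus 10 times the log10 of its p-value in the caller MACS, so 50 is a p of 1e-05, and the median of the mean region scores was 63.2, 70.2 and 101 over the regions of 1, 2 and 3 libraries, beside 58.4, 70.8 and 98.5 for all ASC MyoD regions.

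**Figure D2:**
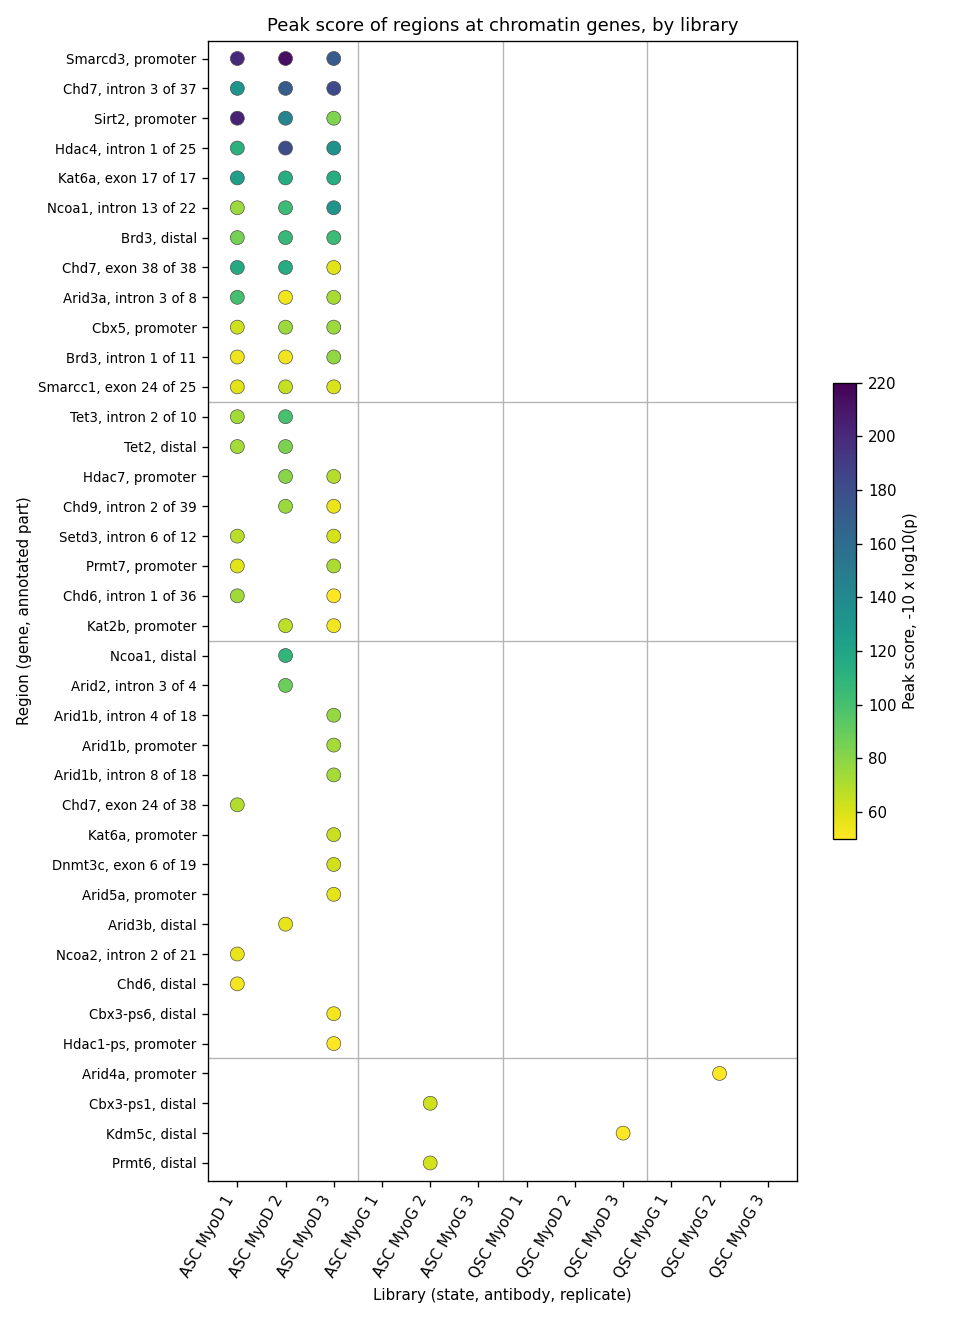
Peak score (color, minus 10 times log10 p) of regions at chromatin genes (rows, with gene and annotated part) in the 12 libraries (columns); a blank cell is a library with no listed peak. Rows are grouped as ASC MyoD regions of 3 libraries (12 shown), 2 libraries (8) and 1 library (14), and below them the 4 regions of other groups.

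Among readers of histone marks, Brd3, a bromodomain protein that binds acetylated histones, had a pair of regions in all 3 ASC MyoD libraries. The distal one (ENSMUSG00000026918, chr2:27436120-27437030, coordinates of build mm10 here and below), 8.55 kb outside the RefSeq gene, scored 85.9, 106 and 104 in replicates 1, 2 and 3 (98.8 ± 11.3, SD, n = 3). The other, in intron 1 of 11 (chr2:27470858-27471893), scored 62.0 ± 13.9 (SD, n = 3). At the internal Cbx5 promoter shown above (ENSMUSG00000009575, chr15:103214999-103215897), scores were 62.7, 75.1 and 75.9, a narrow spread (71.2 ± 7.35) at moderate height. The pseudogene Cbx3-ps6 had 1 distal peak in replicate 3.

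Among remodelers of the SWI/SNF family and the ARID genes, the promoter of Smarcd3 held one of the highest-scoring regions. Smarcd3 encodes the SWI/SNF subunit through which the complex is known to join MyoD at muscle genes. Its region (ENSMUSG00000028949, chr5:24599857-24600946), centered 1.60 kb downstream of the RefSeq start, scored 200.2, 213 and 172 (195 ± 21.1, SD, n = 3). Arid3a, a DNA-binding ARID protein, was found in intron 3 of 8 (ENSMUSG00000019564, chr10:79933927-79934942) at 101, 53.4 and 72.3. Smarcc1, a core scaffold subunit of SWI/SNF, was found in exon 24 of 25 (ENSMUSG00000032481, chr9:110205659-110206618) at a low score with little spread (61.0 ± 3.76, SD, n = 3). The other ARID genes stood in 1 library each: Arid1b and Arid5a in replicate 3, Arid2 and Arid3b in replicate 2. Arid1b, a large SWI/SNF subunit, had 3 separate regions in that single library (promoter, intron 4 and intron 8 of 18), with scores of 73.1, 77.0 and 73.0. Of 23 coding genes in this group, 8 were listed.

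The CHD family of ATP-dependent remodelers was represented by 3 of 10 coding genes. Chd7, which acts at enhancers, had a region in intron 3 of 37 (ENSMUSG00000041235, chr4:8799075-8800108) that scored 131, 170.5 and 182 (161 ± 26.9, SD, n = 3). A further Chd7 region in exon 38 of 38 (chr4:8865249-8866507) scored 117, 116 and 57.4, with replicate 3 well under the other pair, and a peak in exon 24 (69.3) was listed in replicate 1 alone. Chd9 was found in intron 2 of 39 in replicates 2 and 3 (75.7 and 55.8), and Chd6 in intron 1 of 36 in replicates 1 and 3 (74.2 and 50.4).

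Deacetylases are known to oppose activation by MyoD. Hdac4, a class IIa deacetylase that shuttles between cytoplasm and nucleus and represses MEF2 targets, was found in intron 1 of 25 (ENSMUSG00000026313, chr1:92099122-92100363), 80.6 kb downstream of the RefSeq start, at 111, 181 and 134 (142 ± 35.6, SD, n = 3). Sirt2, an NAD-dependent deacetylase, had a promoter-annotated region (ENSMUSG00000015149, chr7:28774036-28775874) of which replicate 1 listed 1 wide peak at 204, whereas replicates 2 and 3 listed 2 narrower peaks each, at 143 and 81.6 and at 50.2 and 83.1. It was the least even of the recurrent regions (143 ± 60.3 over the highest peak per library), and its center lay 8.20 kb downstream of the start in the RefSeq table. Hdac7, another class IIa deacetylase, was found at a promoter in replicates 2 and 3 (80.4 and 68.9). The other 15 of 18 coding deacetylase genes were not listed, and Hdac1-ps had 1 peak, at 50.4, in replicate 3.

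**Figure D3:**
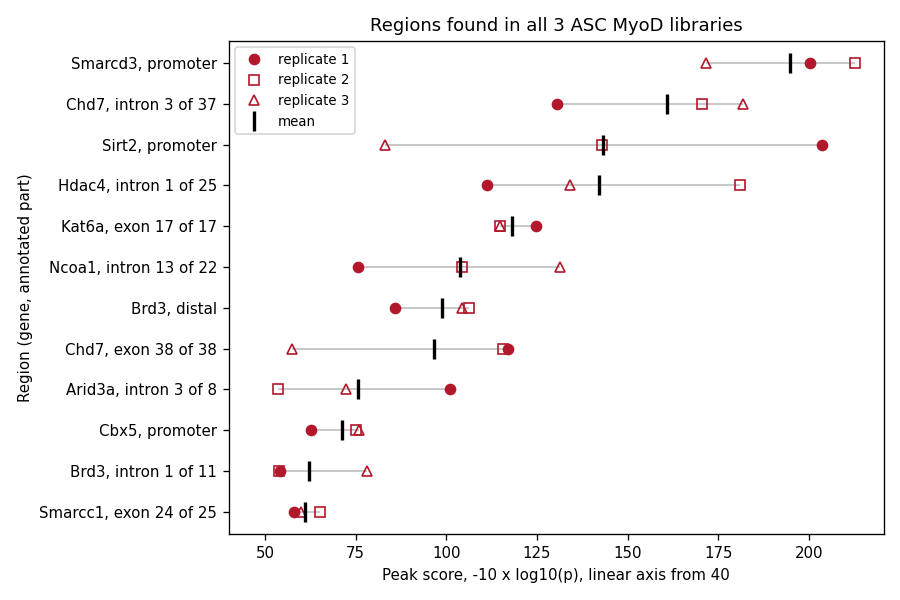
Scores of 12 of the regions found in all 3 ASC MyoD libraries (x axis, minus 10 times log10 p, linear), 1 row per region; symbols are replicates and the black tick is the mean. Scores run from 53.4 to 213, and the spread between replicates is widest at Sirt2 (SD 60.3).

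Histone acetyltransferases and nuclear receptor coactivators were listed for 4 of 17 coding genes. Kat6a, a MYST-family acetyltransferase, was found in its last exon, exon 17 of 17 (ENSMUSG00000031540, chr8:22938850-22939944), at 125, 115 and 115, with little spread (118 ± 5.76, SD, n = 3), and at its promoter in replicate 3 alone (64.3). Ncoa1, a coactivator that joins acetyltransferases to nuclear receptors, was found in intron 13 of 22 (ENSMUSG00000020647, chr12:4284827-4285915) at 75.6, 104 and 131, and in a distal region 45.8 kb outside the gene in replicate 2 alone (109). Kat2b, the acetyltransferase known to acetylate MyoD itself, had a promoter-annotated peak in replicates 2 and 3 (67.1 and 52.8). Its center lay 12.5 kb downstream of the nearest start in the RefSeq table. Ncoa2 had 1 intronic peak in replicate 1 (55.5). Neither Ep300 nor Crebbp, the large acetyltransferases, was listed.

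Methyltransferases and enzymes of DNA methylation had ASC MyoD peaks at 4 coding genes. The names cover 18 lysine methyltransferase, 8 arginine methyltransferase and 7 DNA methylation coding genes. Of all coding genes, 10.7% had a peak in at least 1 ASC MyoD library. Setd3, a SET-domain protein known to methylate actin, was found in intron 6 of 12 in replicates 1 and 3 (67.9 and 61.3) and was 1 of 18 coding lysine methyltransferase names listed, beside 14.4% of all coding genes. Prmt7, an arginine methyltransferase, had a promoter-annotated region in replicates 1 and 3 (57.7 and 71.5), 20.7 kb downstream of the RefSeq start. Tet2 and Tet3, which oxidize methylated cytosine, were each found in replicates 1 and 2. Tet2 was hit 4.41 kb outside the gene (73.2 and 83.4) and Tet3 in intron 2 of 10 (73.8 and 99.3). Dnmt3c, a DNA methyltransferase known from the male germ line, had 1 exonic peak in replicate 3 (62.1). It is listed as a pseudogene of Dnmt3b in RefSeq.

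No gene with a Kdm symbol had an ASC MyoD peak. Jmjd1c, a demethylase-like gene that the name rule does not take, had a promoter region in 2 ASC MyoD libraries. Of 18 coding Kdm genes only Kdm5c was listed. With 14.4% of all coding genes listed and 10.7% in at least 1 ASC MyoD library, so short a list cannot show that Kdm genes were listed less. The Kdm5c peak lay outside the gene by 0.795 kb and came from QSC MyoD replicate 3. Among demethylase and methyltransferase genes tied to the histone marks that the study followed at the Myh locus, 7 were looked up. These 7 (Kdm4a, Kdm4b, Kdm4c, Kdm6a, Kdm6b, Ezh1 and Ezh2) are not all such enzymes. They had no listed peak in any of the 12 libraries. This says only that no interval assigned to them passed the deposited threshold, as was so for all coding genes except the 14.4% listed.

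**Figure D4:**
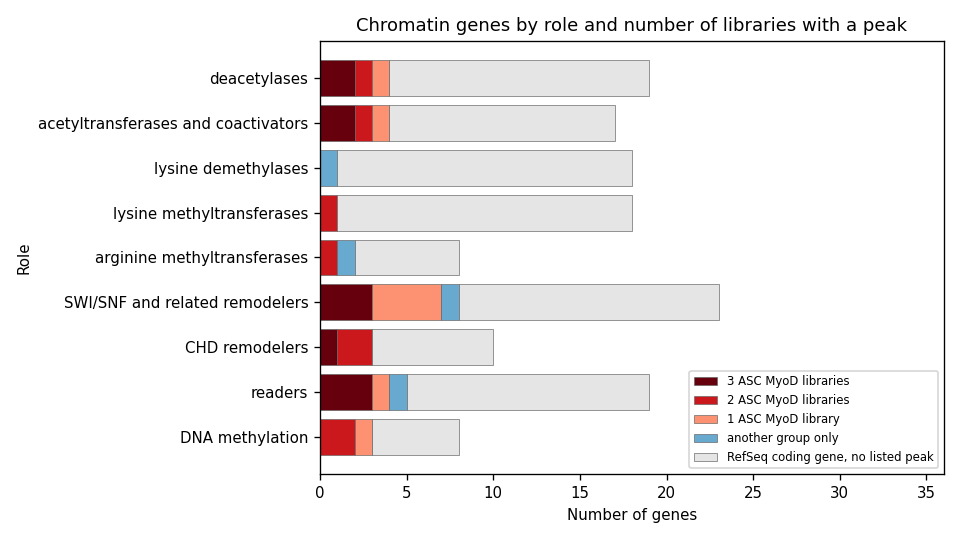
Number of genes in 9 roles (x axis), split by the number of ASC MyoD libraries with a peak, by listing in another group only, and by RefSeq coding genes of the same name pattern with no listed peak (gray). Pseudogene symbols and Dnmt3c are counted among the listed genes. SWI/SNF and ARID genes have 8 listed, and the 18 coding Kdm genes, drawn as lysine demethylases, have none in ASC MyoD.

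Outside the ASC MyoD libraries no chromatin gene recurred. Few of all 4384 genes recurred in QSCs: 15 were in 2 and 16 in 3 QSC MyoD libraries. For QSC MyoG, 11 were in 2 and 4 in 3 libraries. The lack of recurrence in QSCs is thus not particular to chromatin genes. MyoG in ASCs gave 1 distal peak each at Prmt6, an arginine methyltransferase (chr3:110197399-110197991, score 61.4), and Cbx3-ps1 (chr13:65933679-65934619, score 63.1), both in replicate 2. At least 1 ASC MyoG library thus named 2 of 32 chromatin genes (6.25%), against 28% of all genes in the lists, and at least 2 libraries named 0, against 4.7%. In QSCs, MyoD replicate 3 held the Kdm5c peak (chrX:152279897-152280487, score 51.3) and MyoG replicate 2 held a promoter peak at Arid4a, an ARID protein (chr12:71047014-71047515, score 50.8). Any QSC library thus named 2 of 32 (6.25%), against 16.6% of all genes. These low shares are not independent of the choice of genes, since 28 of the 32 entered through ASC MyoD peaks alone. Both QSC scores were close to the lowest value listed, 50, and none of these 4 genes had an ASC MyoD peak.

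For MyoG the number of chromatin genes per library differed by 0.333 between ASC and QSC (exact permutation p = 1), and in QSCs it was equal for MyoD and MyoG, with a mean of 0.333 each (exact permutation p = 1). The MyoG share of peaks, ASC minus QSC, differed by -0.0956 percentage points (exact permutation p = 1). These values rest on single libraries: without ASC MyoG replicate 2 the first difference was -0.333, and without QSC MyoG replicate 2 the share difference was 0.110.

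Within the ASC MyoD libraries, peaks at chromatin genes were compared with peaks at all other genes of the same library. The share of peaks at promoters was 20.8%, 25% and 37.5% at chromatin genes and 23.3%, 21.8% and 22.0% elsewhere, a difference of 5.40 ± 9.23 points (SD, n = 3, exact sign-flip permutation p = 0.5, where 0.25 is the smallest possible). Replicate 1 went the other way, and without replicate 3 the difference was 0.329. The median score was 74.2, 85.7 and 71.9 at chromatin genes and 75.1, 71.8 and 68.9 at others (difference 5.31 ± 7.68, SD, n = 3, exact sign-flip permutation p = 0.5), and without replicate 2 the difference was 1.02. The share of peaks found again in another ASC MyoD library was 87.5%, 87.5% and 68.8% against 68.0%, 72.3% and 71.7% (difference 10.6 ± 11.9 points, SD, n = 3, exact sign-flip permutation p = 0.5). Replicate 3 held the most chromatin gene peaks (32) and the lowest share of them found again. Adjusted over the 3 comparisons, each p was 0.5, and none of the differences was larger than its spread between replicates.

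**Figure D5:**
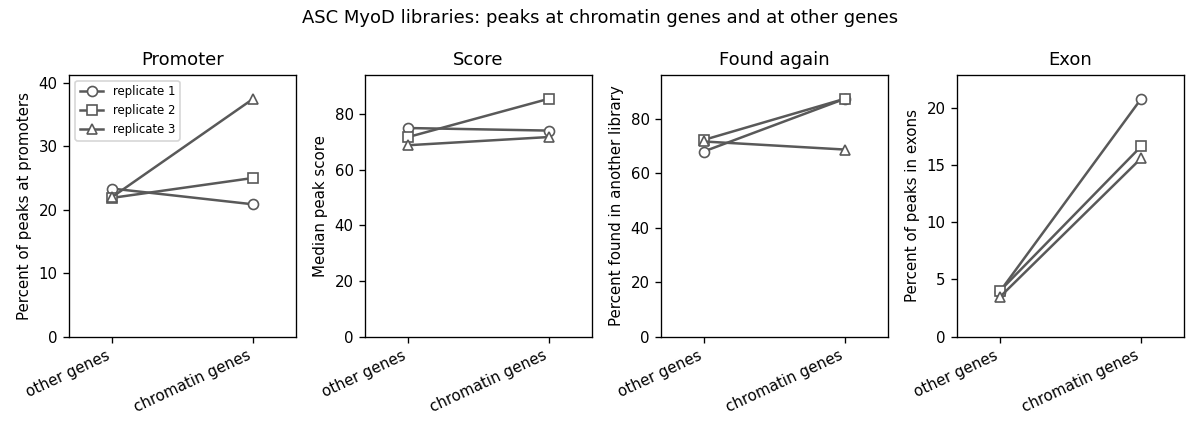
Peaks at other genes (left of each panel) and at chromatin genes (right) in the 3 ASC MyoD libraries, as the percentage at promoters, the median score, the percentage found in another ASC MyoD library and the percentage in exons; each line joins the values of 1 library. The lines cross or diverge in the first 3 panels, and all 3 go up in the exon panel, from 3.45 to 3.98% to 15.6 to 20.8%.

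The share of peaks in exons was a measure chosen after its values were seen. Exonic peaks made up 20.8%, 16.7% and 15.6% of peaks at chromatin genes and 3.92%, 3.98% and 3.45% of peaks at other genes in replicates 1, 2 and 3, a difference of 13.9 ± 2.60 points (SD, n = 3, exact sign-flip permutation p = 0.25, the smallest possible). The peaks behind it belong to 6 regions, which include those at Kat6a, Smarcc1, Chd7 (a pair) and Dnmt3c described above. Of the 14 regions found in all 3 libraries, 4 were exonic, 6 intronic, 3 at promoters and 1 distal, whereas of all 1107 such ASC MyoD regions 3.70% were exonic, 34.6% intronic, 23.2% at promoters and 35.6% distal.

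Further chromatin genes outside these name families were read from a list of 93. It held Polycomb, Trithorax, NuRD, CoREST and SWI/SNF accessory genes, and also other methyltransferases, demethylase-like genes and remodelers. Of the 93, 19 were listed in any library, and 5, 3 and 7 had a peak in 3, 2 and 1 ASC MyoD libraries, so that 8 (8.60%) were found in at least 2 of them, close to the 6.33% of all coding genes. The share listed in any library is to be read against 14.4% of coding genes. The 5 in all 3 libraries were Phf19, a Polycomb accessory protein (promoter, 89.4 ± 36.1, SD, n = 3), Prdm2, a PR-domain methyltransferase (exon 6 of 10, 82.3 ± 14.4), and the SWI/SNF subunits Bcl7a (promoter, 139 ± 11.8), Bcl7c (intron 4 of 4, 91.9 ± 11.4) and Bicra (distal, 112 ± 18.5). Jmjd1c, a demethylase-like protein, had a promoter region in 2 ASC MyoD libraries (118 ± 31.7, n = 2) and a separate MyoG peak in 1 ASC library (57.9). Smyd1, a muscle methyltransferase, had a promoter region in 2 (67.5 ± 2.57, n = 2), and Rcor1, the CoREST scaffold, a distal region in 2 (74.0 ± 4.06, n = 2). In QSCs, Phc2 (MyoD) and Pcgf3 (MyoG) had 1 peak each.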

How the data were processed

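ChIP-seq libraries were processed by the authors with BWA 0.7.5 and MACS on build mm10, per the submitters' processing notes. The deposited tables hold 1 peak per line for each library, with a gene, a gene part and a score, the peak's p-value on the log10 scale times minus 10, as deposited by the authors (lowest 50). How input was used, the MACS version and the annotation release are not given in the sources used here. Members, role lists and the list of further chromatin genes were chosen with earlier results of these data known. Symbols matched RefSeq for 30 of 32 members and 93.5% of all genes. Peaks of 1 antibody were merged into regions on an overlap of 1 bp or more, with the highest score per library. Gene counts and shares were compared by exact permutation tests (20 relabelings) and within libraries by exact sign-flip tests, two-sided, with Benjamini-Hochberg adjustment. Where nothing says that libraries came from separate animals, p-values measure only the spread between these samples. Wilson intervals (95%) and floors (3 counts) cover counting error only. Genes described by name are those with a region in all 3 libraries of a group, those with a QSC or ASC MyoG peak, the Kdm4, Kdm6 and Ezh genes named above and, within their role, all other members. Score values in each library are printed for the 12 recurrent regions of highest mean percentile, except that some results are not reported here. The merging and test code was tested on simulated data. Python 3.11.15, pandas 2.3.3, numpy 2.4.6 and scipy 1.17.1 were used. Alternatives were a score of at least 80, distal peaks left out, promoters within 1 kb, other rules of overlap and of recurrence, a replicate block and each library left out.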

Additional observations from a re-analysis of the deposited data

How the results depend on the processing

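Of 148 recomputed values, 20 moved and 5 reversed, and the other differences kept their direction. No p could cross the threshold of 0.05, since the smallest possible is 0.1 (exact permutation) or 0.25 (sign-flip). Staying on one side of it therefore says nothing about robustness. Counts of genes and regions have no p and no direction. Those not labelled as moved could still change, as from 20 to 14 genes below. The MyoD differences between ASC and QSC kept their direction under all alternatives run, at 18.2 to 20.7 genes with 1 library left out and 10.0 with peaks of a score of at least 80. The small MyoG and QSC differences did not. With peaks of a score of at least 80, the MyoG differences in genes and in share were both 0. With distal peaks left out, the MyoG and the QSC gene differences were both -0.333, the promoter difference within ASC MyoD was -2.34 points, and 1 gene had any QSC peak. Counting only promoters within 1 kb made the promoter difference -0.880 points. With 1 library left out, the MyoG gene difference ran from -0.333 to 0.667, the QSC gene difference from -0.333 to 0.333, the MyoG share difference from -0.206 to 0.110, and the number of genes with any QSC peak from 1 to 2. At a score of at least 80, 9 genes were found in at least 2 ASC MyoD libraries, 7 in all 3, 9 genes and 9 regions were ASC-specific, and 0 had any QSC peak. With 1 ASC MyoD library left out, 14 or 15 genes were found in at least 2 libraries, in place of 20. ASC-specific regions then numbered 17 or 18, in place of 24. Asking for all 3 ASC libraries left 12 ASC-specific genes and 14 regions, and asking for 1 gave 40 regions. The causes were not tested.

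Replicate numbers are shared between groups. The deviations of list length from the group mean correlated over 0.1 in 3 of 6 pairs of groups (0.513 to 0.999) and were negative in the other 3 (-0.986 to -0.362). The highest value, 0.999, was for ASC MyoD with ASC MyoG. Each correlation rests on 3 list lengths per group, so it cannot show whether libraries were paired. No source states which libraries share animals, so the libraries were not treated as paired in the main tests. Whether the numbers mark shared animals is not known. With a replicate block (sign-flips within numbers) the gene differences stayed 19.7 (MyoD), 0.333 (MyoG), 19.3 (ASC) and 0 (QSC) and the share differences 0.928, -0.0956 and 1.01, with no exact p below 0.25. Short QSC lists limit what can be seen in any 1 of them: 3 counts of a list are 1.72% to 2.5%.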

Other observations

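Of the 4 exonic regions at chromatin genes found in all 3 ASC MyoD libraries, 2 lay in the last exon (Chd7, exon 38 of 38, and Kat6a, exon 17 of 17) and 1 in the next to last (Smarcc1, exon 24 of 25). Of all 41 exonic regions found in all 3 ASC MyoD libraries, these 4 included, 9 (22.0%) lay in the last exon and 11 (26.8%) in the last or next to last. The regions were singled out after their values were seen, and no test was made. Several regions annotated as promoters lay far from the starts in the RefSeq table, with centers 8.20 kb (Sirt2), 12.5 kb (Kat2b) and 20.7 kb (Prmt7) downstream. Arid1b, with 3 regions in ASC MyoD replicate 3 and none in the other 11 libraries, was also noticed only after its values were seen.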
